A study of Monodelphis domestica with 9 samples.

Results

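The first step of the opossum series set the condition coded q2 against the condition coded q1. These codes are presumed to stand for P18 and P16, with q3 for P20, because the order of the codes follows the order of the stages. The deposited table does not pair codes with stages, so the pairing is a presumption and the codes are used throughout. By the labels, each stage comprised 3 pups of the grey short-tailed opossum, aged 18 postnatal days for P18 and 16 postnatal days for P16. No treatment of these pups is named in the labels or in the paper's account of the RNA sequencing. By the paper's methods, the tissue was cut by laser at the connection of Meckel's cartilage (MC) and the malleus, with little perichondrium. Its results instead describe MC with its perichondrium just in front of the malleus. How much malleus the tissue held is not known, so MC and malleus cannot be told apart in it. The RNA was amplified before sequencing. Of 37421 TSS groups (transcripts of 1 gene with a common start site) listed for this step, 14363 had the status OK and form the comparison. Both conditions had a value above 0 in 14291 of them. The values are the authors' condition means in FPKM, fragments scaled to transcript length and library size. No value of a single pup is given, so depth per library is unknown, no error stands beside a mean, and no test was run. In bulk tissue, fewer cells of a type and less RNA per cell cannot be told apart.

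MC is a rod of hyaline cartilage, built on a scaffold of collagens II, IX and XI filled with aggrecan. The malleus forms from the same rod and ossifies, which brings hypertrophic chondrocytes, osteoblasts and clasts into its neighbourhood. Clasts are multinucleated cells of the monocyte lineage that resorb bone and mineralized cartilage by secreting acid through a proton pump and collagen-cleaving proteases such as cathepsin K.

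Most of the table was higher in q2. Of the 12559 TSS groups whose mean FPKM was 1 or more, 77.5% had a higher value in q2 than in q1, and the median log2 ratio of q2 to q1 was 0.66, which is a ratio of 1.59. All ratios below were centred on this median, so that a centred log2 ratio of 0 means as high as the middle of the table. A feature was counted as past the fold at a centred log2 ratio of at least 1 or at most -1. In this sense 1582 TSS groups (12.6%) were higher and 1807 (14.4%) lower in q2. With the ratios centred instead on the 0.91 of TSS groups whose mean FPKM was 10 or more, these counts were 1133 and 2498, on the 0.89 of ribosomal protein genes 1165 and 2429, and with no centring 4201 and 738. When FPKM was summed over the TSS groups of a gene, 650 (8.86%) of 7334 genes with a symbol were higher and 824 (11.2%) lower. Among the 1254 genes whose mean FPKM was 10 or more, 86 (6.86%) were higher and 35 (2.79%) lower.

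The shift was not the same at all levels. The median centred log2 ratio was -0.23 for TSS groups with a mean FPKM of 1 to 2, -0.01 from 2 to 5, 0.17 from 5 to 10 and 0.22 from 10 to 50. Above 100 FPKM it was 0.28. The share past the fold on the lower side was 23.3% from 1 to 2 FPKM and 3.46% from 10 to 50 FPKM. TSS groups past the fold on the lower side were thus fewer among abundant ones.

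**Figure D1:**
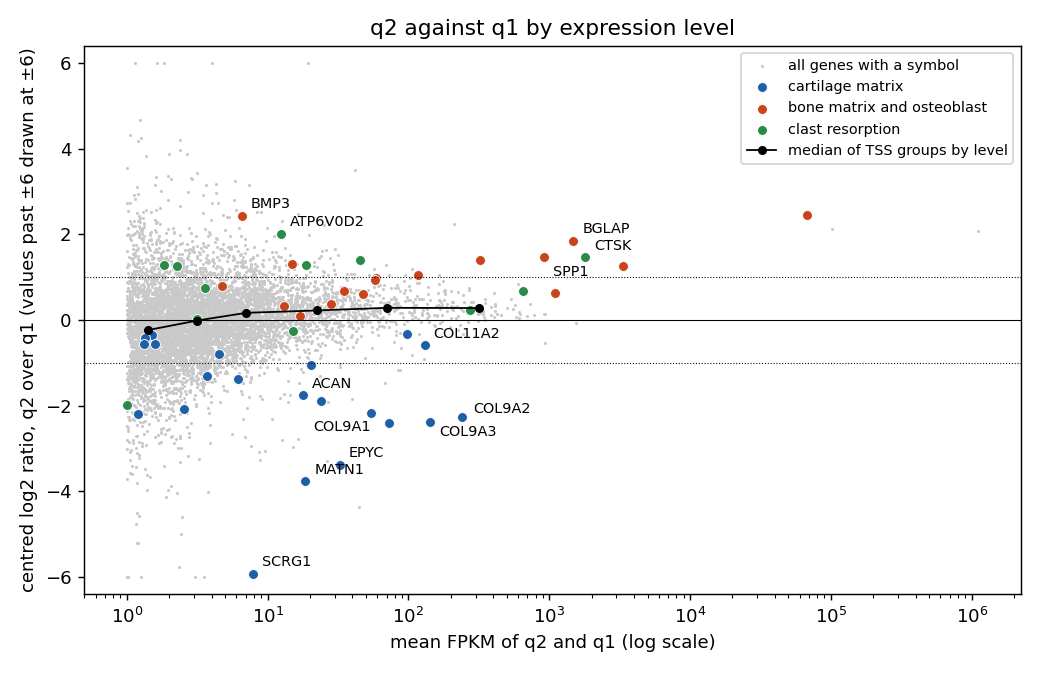
Centred log2 ratio of q2 over q1 (vertical axis) against the mean FPKM of both conditions (horizontal axis, log scale) for genes with a symbol, with 3 lists in colour, the fold limits of 1 and -1 as dotted lines, and the median of TSS groups in each range of FPKM as a black line. All 21 cartilage matrix genes lie below 0, and all 17 bone genes lie above it.

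In place of a spread between pups, the TSS groups of a single gene show how far 2 readings of it can lie apart. For the 385 genes with 2 TSS groups of at least 5 FPKM, the median difference between the 2 centred log2 ratios was 0.34, and it reached 1.28 at the 90th percentile. In 123 of these genes the TSS groups lay on opposite sides of the shift, and in 2 of them both were past the fold in opposite directions. With TSS groups from 1 FPKM on, the median difference over 1895 genes was 0.78. This is a spread between transcripts of a gene and not an error over animals.

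**Figure D2:**
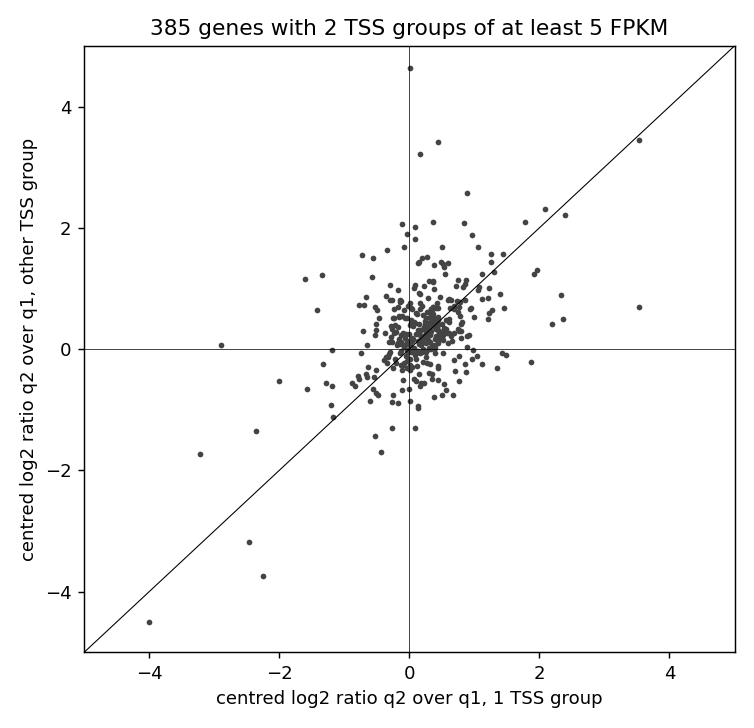
Centred log2 ratio of q2 over q1 for the 2 TSS groups of each of 385 genes, 1 TSS group on each axis and 1 point per gene, with the line of equality. The median distance between the 2 values of a gene is 0.34, FGFBP2 lies lowest at -4.01 and -4.50, and single genes lie far from the line.

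The clearest pattern was among genes of cartilage matrix, which were lower in q2. Of 26 genes on the list, 21 reached a mean FPKM of 1 and are called measured here and below. All 21 lay below the shift and 14 were past the fold on the lower side, where 11.2% of all genes were. Their median centred log2 ratio was -1.76, against -0.01 for all genes, and 15 of the 21 were lower in q2 even before centring. Of the 11 members at 10 FPKM or more, 9 were past the fold, against 2.79% of all genes of that level. Summed over the 21 genes, the FPKM was 569 in q2 and 1200 in q1. COL2A1, which encodes the collagen that defines hyaline cartilage, is listed at 0 in both conditions and gives no ratio.

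The 3 genes of collagen IX, which decorates and links the collagen II fibrils, were lower to a like degree. COL9A1 (chromosome 2 from 321116018 to 321243020; the sources name no build for the coordinates given here) had 33.4 FPKM in q2 and 112 in q1. COL9A2 had 120 FPKM in q2 and 363 in q1, and COL9A3 had 66.5 in q2 and 217 in q1. Each was about as far below the shift as the others, with centred log2 ratios of -2.41, -2.26 and -2.37. All 10 TSS groups of the 3 genes were past the fold on the lower side. COL9A3 shares its locus in the table with TCFL5, so reads of the 2 may be mixed. In q3, COL9A1 had 61.7 FPKM and COL9A2 had 373. All q3 values given here are uncentred, and the median log2 ratio of q3 to q2 was 1.27 over 5616 genes with a value in all 3 conditions.

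MATN1, EPYC and SCRG1 lay farther down than collagen IX, and LECT1, HAPLN1 and ACAN less far. MATN1, matrilin-1 of non-articular cartilage (chromosome 4 from 431579948 to 431616812), had 3.89 FPKM in q2 and 33.2 in q1, at a centred log2 ratio of -3.76. EPYC, the small proteoglycan epiphycan, had 8.64 FPKM in q2 and 56.6 in q1. SCRG1, a small protein found in cartilage, had 0.403 FPKM in q2 and 15.4 in q1, which at -5.92 is the lowest centred ratio of the list. In q3, MATN1 had 1.995 FPKM and SCRG1 is listed at 0. LECT1, chondromodulin, which keeps vessels out of cartilage, had 28.4 FPKM in q2 and 80.5 in q1. HAPLN1, the link protein that ties aggrecan to hyaluronan, had 14.2 FPKM in q2 and 33.4 in q1. ACAN, aggrecan itself, had 11.4 FPKM in q2 and 24.2 in q1. Each of the 3 TSS groups of ACAN was lower in q2, with centred log2 ratios of -1.40, -1.45 and -2.44.

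Collagen XI, the collagen within the fibril core, did not follow collagen IX. COL11A1 had 110 FPKM in q2 and 87.0 in q1, and COL11A2 had 134 in q2 and 126 in q1. Their centred log2 ratios of -0.33 and -0.58 are within the fold limit, and before centring both were slightly higher in q2. MATN4 and COMP, a pentameric glycoprotein that binds collagen fibrils, were between these groups at -1.04 and -1.38.

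**Figure D3:**
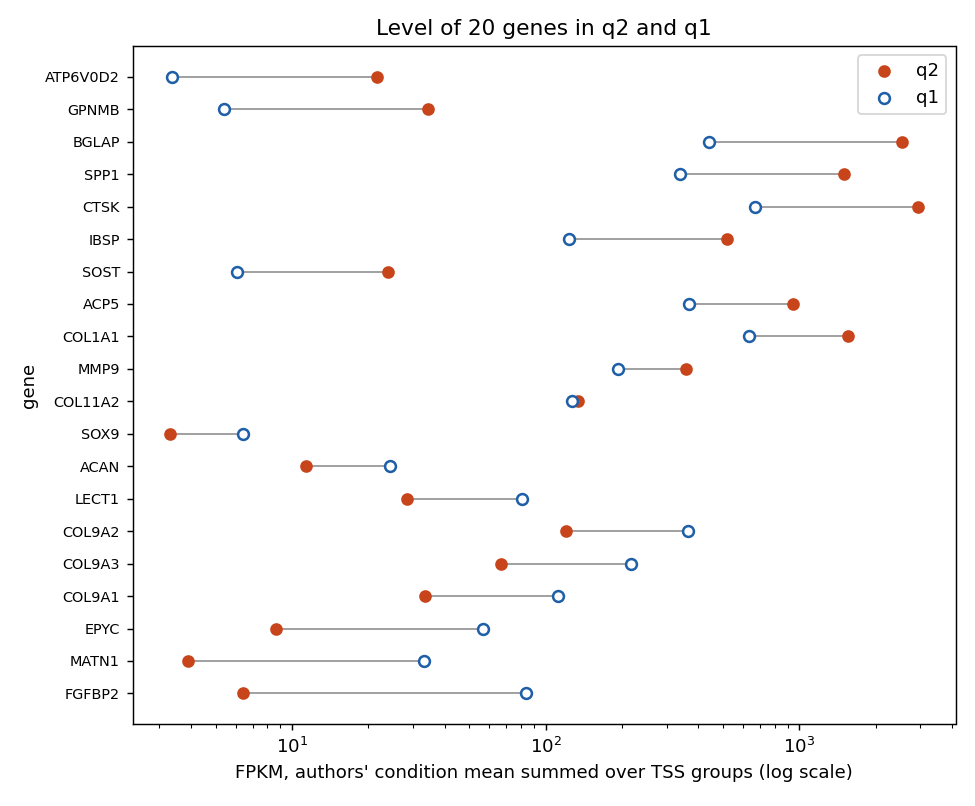
FPKM of 20 genes in q2 (filled points) and q1 (open points) on a log scale, each the authors' condition mean summed over the TSS groups of the gene, ordered by centred log2 ratio. CTSK reaches 2935 FPKM in q2, whereas FGFBP2 is at 6.41 in q2 and 83.5 in q1.

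The regulators of chondrocytes were closer to the rest of the table than the matrix genes. Of 14 measured, 1 was past the fold on the lower side and none on the higher, against 11.2% and 8.86% of all genes. The median centred log2 ratio was -0.17. Before centring, 13 of the 14 were higher in q2. The exception was SOX9, the factor that drives cartilage matrix genes, with 3.31 FPKM in q2 and 6.43 in q1, at -1.62. Its partners SOX5 and SOX6 had centred log2 ratios of -0.24 and -0.64. FGFR3, a receptor that restrains chondrocyte division, had 11.5 FPKM in q2 and 10.9 in q1. PTH1R, the receptor of parathyroid hormone-related protein, had 139 FPKM in q2 and 84.2 in q1, which is at the shift. NKX3-2 (Bapx1), the gene of the joint between malleus and incus, had 2.54 FPKM in q2 and 2.02 in q1.

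Genes of bone matrix and osteoblasts were higher in q2. All 17 measured members of 24 lay above the shift, 8 were past the fold (8.86% of all genes were) and none was lower. The median centred log2 ratio was 0.97, and 0.73 when centred on TSS groups of at least 10 FPKM. BGLAP, osteocalcin (chromosome 2 from 191124257 to 191126222), had 2531 FPKM in q2 and 441 in q1, and its 2 TSS groups had centred log2 ratios of 1.78 and 2.09. SPP1, osteopontin, which osteoblasts and clasts both make, had 1501 FPKM in q2 and 339 in q1. IBSP, bone sialoprotein, had 519 FPKM in q2 and 123 in q1. Abundant and rare members alike were above the shift. SPARC, osteonectin, had 5286 FPKM in q2 and 1398 in q1, and its locus also holds an unnamed gene. BMP3, a BMP made by osteoblasts and osteocytes, had 11.7 FPKM in q2 and 1.36 in q1, at 2.44.

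Osteocyte genes were among them. SOST, sclerostin, an inhibitor of Wnt signalling from osteocytes, had 23.8 FPKM in q2 and 6.08 in q1. DMP1, a mineralization protein of osteocytes, had 178 FPKM in q2 and 54.3 in q1. PHEX, a peptidase that regulates phosphate, had 87.2 FPKM in q2 and 28.8 in q1. The centred log2 ratios of these 3 were 1.31, 1.05 and 0.94. MEPE, another osteocyte matrix protein, was nearer to the shift at 0.37. COL1A1, the main collagen of bone, had 1558 FPKM in q2 and 633 in q1. Its 2 TSS groups went opposite ways, with centred log2 ratios of 1.22 and -1.35, so its sum at 0.63 hides a difference between transcripts.

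Of 14 measured genes of hypertrophy and mineralization, 12 lay above the shift and 4 were past the fold on the higher side, where 8.86% of all genes were, and the median was 0.59. The 4 were PHOSPHO1, ENPP1, and SPP1 and IBSP, which were also counted in the bone list. PHOSPHO1, a phosphatase of matrix vesicles, had 12.4 FPKM in q2 and 3.59 in q1. ENPP1, which makes the mineralization inhibitor pyrophosphate, had 4.82 FPKM in q2 and 1.47 in q1. COL10A1, the collagen of hypertrophic cartilage, had 6.25 FPKM in q2 and 2.36 in q1, at 0.74, and 41.0 in q3. ALPL, alkaline phosphatase, had 67.4 FPKM in q2 and 27.7 in q1, and MMP13, the collagenase of hypertrophic cartilage, had 91.8 in q2 and 44.7 in q1. RUNX2, the factor shared by osteoblasts and hypertrophic chondrocytes, was nearer to the shift at 0.32.

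Genes of clast resorption were higher in q2 as a list, though its members were spread widely. Of 17 genes, 12 were measured, 10 lay above the shift, and 6 were past the fold on the higher side and 1 on the lower (8.86% and 11.2% of all genes were). The median centred log2 ratio was 1.01, and 0.77 when centred on TSS groups of at least 10 FPKM. CTSK, cathepsin K (chromosome 2 from 495950337 to 495981404), was the most abundant member with 2935 FPKM in q2 and 671 in q1, and its 3 TSS groups had centred log2 ratios of 1.25 to 3.00. ACP5, the phosphatase TRAP, had 942 FPKM in q2 and 368 in q1, at 0.69. MMP9, a gelatinase of clasts, had 358 FPKM in q2 and 194 in q1, at 0.22, which is the median of genes with at least 10 FPKM. So these 3 genes differed in this step, and MMP9 was no higher than other abundant genes. In q3 they had 12823, 4403 and 2813 FPKM. SLC9B2, a sodium-proton exchanger, was the member past the fold on the lower side, with 0.578 FPKM in q2 and 1.44 in q1.

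The proton pump gave 8 of 11 measured subunits above the shift and 4 past the fold on the higher side (8.86% of all genes were). Of the 4, ATP6V0D2, ATP6V1B2 and ATP6V1A were also counted under clast resorption. ATP6V0D2, the subunit made mainly by clasts, had 21.6 FPKM in q2 and 3.36 in q1, at 2.02. ATP6V1B2 had 72.9 FPKM in q2 and 17.4 in q1, and ATP6V1A, the catalytic subunit, had 29.7 in q2 and 7.66 in q1. ATP6AP2, an accessory protein, was the fourth past the fold, at 1.12. The ubiquitous ATP6V0B had 230 FPKM in q2 and 106 in q1, and ATP6V0D1, the widely expressed counterpart of ATP6V0D2, lay at -0.10. TCIRG1, the pump subunit of the clast membrane, is listed at 0 in both conditions. CLCN7, the chloride channel that acts beside the pump, was at the shift with 3.86 FPKM in q2 and 2.41 in q1.

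Clast differentiation genes were all above the shift. Of 9 measured, 4 were past the fold on the higher side (8.86% of all genes), none was lower and the median was 0.82. SPI1, the factor PU.1 of the myeloid lineage, had 11.7 FPKM in q2 and 2.21 in q1, at 1.74. CSF1R, the receptor of CSF1 on clast precursors, had 19.1 FPKM in q2 and 3.97 in q1. OSCAR, a collagen receptor of clasts, had 46.3 FPKM in q2 and 11.9 in q1, and NFATC1, the factor of clast differentiation, had 12.8 in q2 and 3.46 in q1. DCSTAMP, which is needed for fusion, had 3.69 FPKM in q2 and 1.33 in q1, at 0.80. TNFRSF11A, the receptor RANK, was near the shift with 2.52 FPKM in q2 and 1.49 in q1, and its ligand TNFSF11 was at 1.07 with 2.42 FPKM in q2 and 0.726 in q1.

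Lysosomal genes beyond cathepsin K followed in part. Of 14 measured, 12 lay above the shift, with a median of 0.54. Only CTSK and CTSS were past the fold on the higher side (8.86% of all genes were). CTSA and CTSB had 40.9 and 32.5 FPKM in q2, against 13.9 and 14.6 FPKM in q1. The macrophage and myeloid genes were mixed. Of 15 measured, 4 were past the fold on the higher side and 2 on the lower, around a median of 0.41. Of all genes, 8.86% were higher and 11.2% lower, so the count on the lower side was near that of the table. GPNMB, a glycoprotein of macrophages and clasts, had 34.3 FPKM in q2 and 5.42 in q1. FCER1G, a signalling adaptor that OSCAR uses, had 12.9 FPKM in q2 and 3.28 in q1. The 2 on the lower side were C1QA, a complement protein of tissue macrophages with 5.87 FPKM in q2 and 8.47 in q1, and CD14, a monocyte receptor with 2.25 in q2 and 4.40 in q1.

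**Figure D4:**
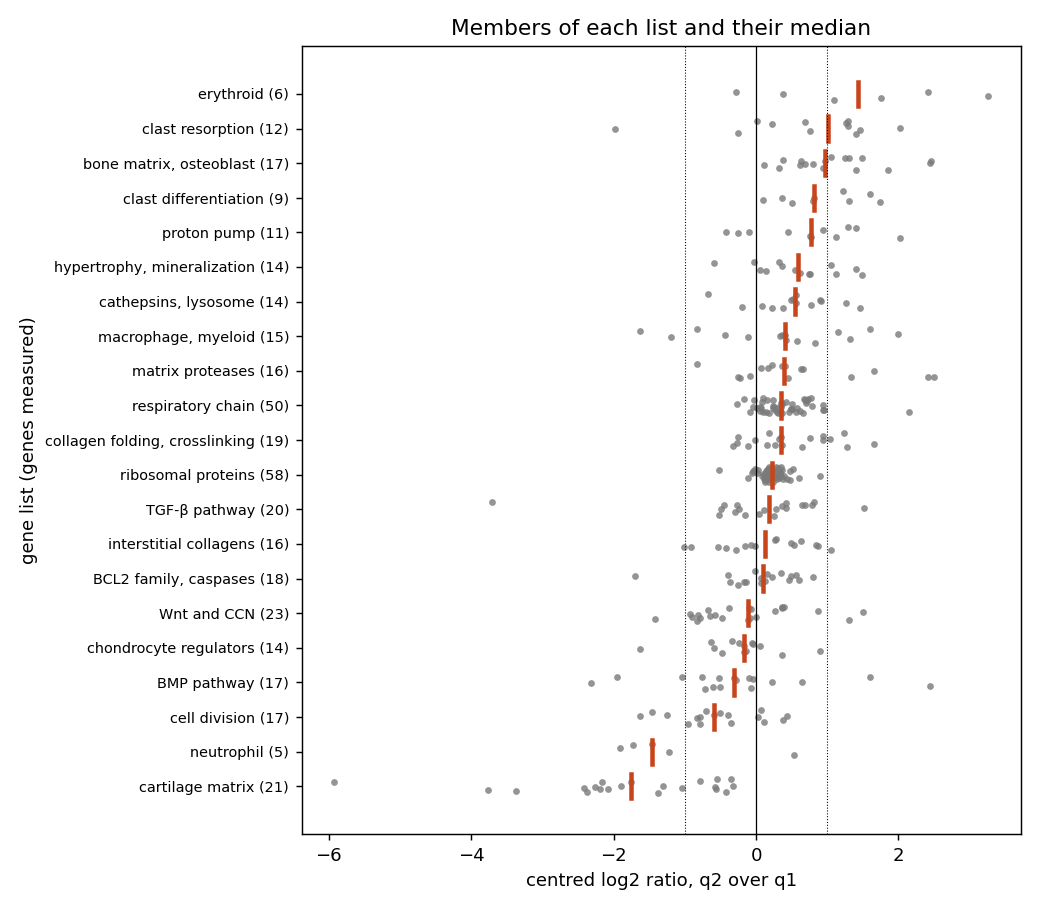
Centred log2 ratio of q2 over q1 (horizontal axis) for each measured member (grey points) of 21 gene lists, with the median of the list as an orange bar, the number of genes measured in brackets and the fold limits of 1 and -1 as dotted lines. The cartilage matrix list lies lowest at -1.76, and the erythroid, clast resorption and bone lists lie highest at 1.42, 1.01 and 0.97.

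The collagens of perichondrium and bone lay around the shift. Over 16 genes the median was 0.13, which turned to -0.12 when centred on TSS groups of at least 10 FPKM. COL5A1 was past the fold on the higher side with 80.3 FPKM in q2 and 24.4 in q1, and COL15A1 on the lower side with 2.80 in q2 and 3.57 in q1. They were the only members past it, where 8.86% of all genes were higher and 11.2% lower. COL3A1 had 482 FPKM in q2 and 215 in q1. Enzymes that fold, trim and crosslink collagen had a median of 0.35 over 19 genes, and 4 were past the fold, all higher (8.86% of all genes were). LOX, lysyl oxidase, had 110 FPKM in q2 and 28.7 in q1. LOXL2 had 35.4 FPKM in q2 and 9.50 in q1. PCOLCE, which helps to trim procollagen, had 254 FPKM in q2 and 77.7 in q1, and ADAMTS2, a procollagen peptidase, had 9.15 in q2 and 1.84 in q1. Among the small leucine-rich proteoglycans, DCN (decorin) was higher with 167 FPKM in q2 and 46.2 in q1, opposite to EPYC and PRELP.

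Matrix proteases had a median of 0.39 over 16 genes, with 4 past the fold on the higher side (8.86% of all genes were). HTRA3, a secreted serine protease, had 6.26 FPKM in q2 and 0.696 in q1, and FAP, a peptidase of activated fibroblasts, had 9.54 in q2 and 1.13 in q1. MMP2, a gelatinase of connective tissue, had 42.4 FPKM in q2 and 20.2 in q1, and MMP14, a membrane collagenase, had 17.4 in q2 and 13.1 in q1. Among their inhibitors, TIMP1 had 145 FPKM in q2 and 44.3 in q1, at 1.05. TIMP3, which is bound to matrix, had 17.8 FPKM in q2 and 18.9 in q1, at -0.75.

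The TGF-β pathway lay close to the shift as a list, at a median of 0.18 over 20 genes that turned to -0.06 when centred on TSS groups of at least 10 FPKM. On the higher side 1 member was past the fold and on the lower side 1, against 8.86% and 11.2% of all genes. TGFBR2, the type II receptor (chromosome 8 from 290921351 to 291007892), was the member on the higher side with 7.99 FPKM in q2 and 1.76 in q1, at 1.52. Its partner TGFBR1 had 4.86 FPKM in q2 and 2.30 in q1, at 0.42. The ligands TGFB1 and TGFB2 had 21.1 and 44.4 FPKM in q2, against 9.96 and 23.2 FPKM in q1, and TGFB3 had 3.98 in q2 and 3.55 in q1, at -0.50. LRRC32, which holds latent TGF-β at the cell surface, was far below the shift with 0.216 FPKM in q2 and 1.78 in q1. The ratio of TGFBR2 rests on 1 TSS group.

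The BMP pathway had a median of -0.31 over 17 genes, with 2 past the fold on the higher side and 3 on the lower. These counts were near the 8.86% and 11.2% of all genes, so the values below describe single members. Beside BMP3, the BMP receptor ACVR1 was higher, with 2.99 FPKM in q2 and 0.621 in q1. The receptor ACVR2A had 1.79 FPKM in q2 and 4.37 in q1. Of the antagonists that bind BMP ligands, CHRD (chordin) had 0.538 FPKM in q2 and 1.69 in q1. The target genes ID1 and ID3 lay at -0.52 and -0.07, and before centring both were higher in q2.

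In the Wnt and CCN list the median was -0.11 over 23 genes, and 7 of them were lower in q2 before centring. WISP1, a CCN protein (chromosome 3 from 412111897 to 412156766), had 38.9 FPKM in q2 and 8.67 in q1. SOST was the other member past the fold on the higher side, where 8.86% of all genes were. The remaining CCN genes went the other way. CTGF and CYR61 had 22.5 and 11.1 FPKM in q2, against 25.1 and 13.0 FPKM in q1, and WISP2 had 1.66 FPKM in q2 and 2.79 in q1. Their centred log2 ratios were -0.82, -0.90 and -1.42. DKK1, a secreted Wnt antagonist, had 29.9 FPKM in q2 and 10.4 in q1, at 0.87.

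Genes of the BCL2 family and caspases lay near the shift, with a median of 0.10 over 18 genes that turned to -0.14 when centred on TSS groups of at least 10 FPKM. None was past the fold on the higher side and 1 was on the lower, against 8.86% and 11.2% of all genes. APAF1, which forms the apoptosome, was past it on the lower side with 2.49 FPKM in q2 and 5.11 in q1. CASP8, which starts apoptosis from death receptors, had 5.34 FPKM in q2 and 2.40 in q1, and CASP9 had 3.23 in q2 and 1.84 in q1. BAX, which opens the mitochondrial membrane, had 17.3 FPKM in q2 and 7.91 in q1, at 0.47. The autophagy genes had a median of -0.08 over 17 genes, with ATG13 past the fold on the higher side at 1.37 and ULK1 on the lower at -1.76. These were the only autophagy genes past the fold, where 8.86% of all genes were higher and 11.2% lower.

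Genes of cell division had a median of -0.60 over 17 genes, of which 5 lay above the shift. On the lower side 3 were past the fold and on the higher side none, against 11.2% and 8.86% of all genes. MKI67, a marker of cycling cells, had 6.16 FPKM in q2 and 5.51 in q1. TOP2A, a topoisomerase of dividing cells, had 5.63 FPKM in q2 and 6.12 in q1, and CDC20, an activator of mitotic exit, had 8.43 in q2 and 10.3 in q1. Before centring, 8 of the 17 were lower in q2. DNA replication genes had a median of 0.24 over 15 genes, which was no longer above 0 when centred on TSS groups of at least 10 FPKM. CDC6, which loads the replicative helicase, and MCM6, a subunit of it, were past the fold on the lower side at -3.96 and -1.06. No DNA replication gene was past it on the higher side. Of all genes, 11.2% were lower and 8.86% higher, so the count on the lower side was near that of the table. PCNA, the replication clamp, had 13.0 FPKM in q2 and 7.62 in q1.

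Among housekeeping lists, the ribosomal proteins were the most closely grouped of those described here. None of the 58 ribosomal protein genes was past the fold, and their median was 0.22, the same as that of all genes with at least 10 FPKM. RPS28 and RPS27, the most abundant, had 1879 and 1183 FPKM in q2, against 1237 and 671 FPKM in q1. The nuclear genes of the respiratory chain lay a little higher, at 0.35 over 50 genes, with 45 above the shift and NDUFA5 past the fold. Aminoacyl-tRNA synthetases lay at 0.47 over 13 genes, translation factors at 0.31 over 39, and proteasome subunits at 0.21 over 27. The translation factors spanned -1.32 to 1.94 with 3 past the fold on each side, and 1 synthetase and 2 proteasome subunits were past it on the higher side (8.86% of all genes were higher and 11.2% lower). With centring on TSS groups of at least 10 FPKM these medians were 0.11, 0.22, 0.07 and -0.04. Among actin genes, TMSB10 was past the fold with 37.7 FPKM in q2 and 8.75 in q1, CORO1A was past it on the lower side at -1.74, and the median over 23 genes was 0.28. TMSB10 and CORO1A were the only actin genes past the fold, against the same shares of all genes.

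Markers of other cell types also differed between the conditions, and their part in the results above was not tested. Of 5 measured neutrophil genes, 4 were past the fold on the lower side, where 11.2% of all genes were. S100A8 and S100A9, the calprotectin subunits, had 49.9 and 15.8 FPKM in q2, against 87.1 and 37.6 FPKM in q1. MPO, myeloperoxidase of neutrophil granules, was the exception with 66.9 FPKM in q2 and 29.2 in q1, and the 5 genes summed to 142 FPKM in q2 and 173 in q1. ELANE and PRTN3 are listed at 0 in both conditions. Erythroid genes were higher, with 4 of 6 past the fold (8.86% of all genes were) and sums of 31.6 FPKM in q2 and 5.70 in q1. These were genes of low level, with a median of 2.76 for their mean FPKM. Their median centred log2 ratio of 1.42 was 0.81 with a pseudocount of 1. ALAS2, the first enzyme of haem synthesis in red cells, had 11.0 FPKM in q2 and 0.728 in q1. Skeletal muscle genes were mixed and summed to 32.7 FPKM in q2 and 13.4 in q1 over 7 genes. Of these, 5 lay above the shift and 2 were lower in q2 before centring. Only MYLPF was past the fold, on the higher side, where 8.86% of all genes were. MYL2, with 0 FPKM in q2 and 1.43 in q1, gives no ratio. Endothelial genes had a median of 0.13 over 12 genes, or -0.11 when centred on TSS groups of at least 10 FPKM, with sums of 54.5 FPKM in q2 and 34.8 in q1. Schwann cell and neuron genes had a median of -0.20 over 10 genes. Of these, STMN2, UCHL1 and GAP43, which are markers of neurons and growing axons, were past the fold on the lower side at -1.01, -1.08 and -1.46. On that side 11.2% of all genes were past it.

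Genes that pattern the first arch were mostly at the shift, with a median of 0.10 over 14 genes, or -0.15 when centred on TSS groups of at least 10 FPKM. MSX1, a homeobox gene of jaw mesenchyme, had 6.87 FPKM in q2 and 0.485 in q1. GSC, goosecoid, needed for the mandible and malleus in mice, had 2.41 FPKM in q2 and 0.0595 in q1. Both rest on low values in q1. MSX2 and BARX1 had 10.9 and 15.7 FPKM in q2, against 7.18 and 11.2 FPKM in q1. Of 23 HOX genes in the table, HOXD8 alone reached a mean of 1 FPKM with the status OK, with 1.46 FPKM in q2 and 0.906 in q1.

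Over the whole step, 1809 genes had at least 5 FPKM in both conditions, of which 61 were past the fold on the higher side and 54 on the lower. Of the 15 lowest, 6 belong to the cartilage matrix list. The lists were chosen with earlier results of these data known, so overlap of the lowest or highest genes with a list lends it no support. The lowest was FGFBP2, of the FGF-binding protein family (chromosome 5 from 213531755 to 213534959), with 6.41 FPKM in q2 and 83.5 in q1. Its 2 TSS groups had centred log2 ratios of -4.01 and -4.50. FABP7, a fatty acid-binding protein of neural and glial cells, had 7.39 FPKM in q2 and 45.7 in q1. In FABP7 the low ratio came from 1 of 2 TSS groups, at -3.82, while the other was at -0.51. CLEC3A, a lectin of cartilage, had 5.13 FPKM in q2 and 25.2 in q1, and CYTL1, a cytokine-like protein made by chondrocytes, had 6.18 in q2 and 26.8 in q1. S100A9, HMGB3, AAMDC, ITM2A and the small nucleolar RNA SNORA8 completed the lowest genes, at -2.32 to -1.85. ITM2A is a membrane protein of early chondrogenic cells.

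The 15 highest genes included BGLAP and SPP1 of the bone list. CPZ, a carboxypeptidase that binds Wnt proteins, had 46.5 FPKM in q2 and 5.89 in q1, and both of its TSS groups were past the fold at 2.39 and 2.21. WFDC1, a secreted protein with a protease inhibitor fold, had 44.1 FPKM in q2 and 5.95 in q1. RGCC, a regulator of the cell cycle, had 43.2 FPKM in q2 and 8.81 in q1. GALNS, a lysosomal sulfatase that degrades keratan sulfate and chondroitin sulfate of cartilage, had 51.6 FPKM in q2 and 11.4 in q1, and shares its locus with TRAPPC2L. C1QTNF6, LSM8 and SOBP had centred log2 ratios of 1.66, 1.62 and 1.51. The top places also hold TBC1D22B, PDZD4 and MDGA2, each set by a single TSS group of high FPKM. TBC1D22B had 1 TSS group at 178402 FPKM in q2 and 25823 in q1. KANSL1, among the 10 most abundant, was below the shift with 966 FPKM in q2 and 886 in q1.

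A zero in 1 condition gives no ratio. Of the 14363 TSS groups, 62 are listed at 0 in q2 only and 10 in q1 only. The 5 with the highest FPKM in q1 among those at 0 in q2 were TSS groups of 5S_rRNA, SNORA19, 5S_rRNA, SNORA48 and SCARNA3, with 30.8 to 12.6 FPKM in q1. Among those at 0 in q1, TSS groups of U1, SNORA63, SNORA3, SAYSD1 and an unnamed gene had 25.1 to 2.30 FPKM in q2. Of these 10, 8 are small non-coding RNAs. Over all zeros, small RNAs were 17 of the 62 in q2 and 3 of the 10 in q1. They made up 167 of the 14363 TSS groups compared.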

How the data were processed

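RNA was measured in laser-captured tissue of 3 pups per stage (P16, P18, P20). TopHat, Cufflinks and Cuffdiff are listed in the submitters' processing notes. Their versions, the build and annotation, and how libraries were scaled are not given here, so how far the shift of all genes follows from scaling cannot be told apart from the data. The authors deposited FPKM as condition means per TSS group, with columns for their own fold changes, p-values and calls, which were not used. A second table of called tests was not used. Values of q3 are those listed against q1. The copy used here ends after 65535 rows, so for some genes q3 is not used. Symbols were available for 7991 names among the tested TSS groups, of which 7151 of 7924 other than small RNAs are in RefSeq (mMonDom1). Another 2182 Ensembl IDs stayed unnamed.

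Log2 ratios of q2 to q1 were computed where both values were above 0 and centred on the median of TSS groups whose mean FPKM was 1 or more. For genes, FPKM was summed over TSS groups with status OK, and 45 gene lists were described over genes whose mean FPKM was 1 or more. Some genes are in more than 1 list, so the counts of those lists overlap. The kit does not mark strand, so overlapping genes may share reads. Genes were named from the 15 highest and 15 lowest ratios with at least 5 FPKM in both conditions, the 10 of highest mean FPKM, the genes the paper names, the highest zeros, and list members. Members and lists were chosen with earlier results of these data known. The functions were tested on simulated ratios. Python 3.11.15, numpy 2.4.6, pandas 2.3.3 and matplotlib 3.10.9 were used. Alternatives covered the fold, low FPKM, pseudocounts, centring and summing. A few genes are not reported here.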

Additional observations from a re-analysis of the deposited data

How the results depend on the processing

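No paired analysis was possible because the table holds condition means and no column carries a replicate number, and leaving out single pups could not be done for the same reason. The counts of higher and lower TSS groups, 1582 and 1807, were 465 and 483 at a centred log2 ratio of 2, 150 and 54 with a mean FPKM of at least 10, 768 and 927 with a pseudocount of 1, and 4201 and 738 with no centring. The smaller counts at the stricter limits follow from fewer features passing them. Without a filter on FPKM they were 2148 and 2477, and, chosen after seeing the data, 1520 and 1787 with both values of at least 0.01. The median log2 ratio of 0.66 was 0.91 with a mean FPKM of at least 10. With no centring the list medians were 1.68 for clast resorption, 1.48 for clast differentiation, 1.64 for bone and -1.09 for cartilage matrix. Clast differentiation had 1.22 with no filter and 1.30 with a mean FPKM of at least 10. Cartilage matrix had -2.17 with a mean FPKM of at least 10 and -1.25 with a pseudocount of 1. Over 41 lists, 222 of 280 alternative medians moved by less than 0.34, the median difference between 2 TSS groups of a gene. By construction, no centring moved every list by 0.66 and centring on ribosomal protein genes moved every list by 0.22. These settings therefore say nothing of how steady a list is. No list with a median past the fold and no named gene past it changed sign. Below about 5 FPKM, single ratios are uncertain.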

Other observations

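TSS groups of the X chromosome lay below those of the autosomes. Their median centred log2 ratio was -0.22 over 242 TSS groups at 1 FPKM or more, while the medians of the 8 autosomes lay between -0.02 and 0.02. From 5 FPKM on it was 0.02 over 83 TSS groups of X, against 0.23 over 3135 of the autosomes. From 10 FPKM on it was -0.03 over 48, against 0.25 over 1657. The sex of the pups was not known here, and its part was not tested. This pattern was noticed in the data.

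Small non-coding RNAs, grouped after their values were seen, had a median of -0.39 over 115 TSS groups at 1 FPKM or more, of which 39 were past the fold on the lower side and 20 on the higher. Of all TSS groups, 14.4% were lower and 12.6% higher. The H/ACA small nucleolar RNAs (SNORA) were at -0.62 over 30 TSS groups and the C/D ones (SNORD) at 0.26 over 13. Such transcripts are short, and their FPKM depends strongly on the length used.

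Other genes past the fold on the higher side act in the same compartments as members of the lists. They were picked after their values were seen, so they lend those lists no support. GLB1 and SMPD1, lysosomal hydrolases like GALNS, had 56.5 and 46.0 FPKM in q2, against 16.8 and 12.9 FPKM in q1. KDELR2 and KDELR3, receptors that return proteins to the endoplasmic reticulum, had 41.0 and 89.2 FPKM in q2, against 12.5 and 24.7 FPKM in q1. GJA1, the gap junction protein of osteoblasts and osteocytes, had 24.1 FPKM in q2 and 6.58 in q1.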
